A study of Mus musculus with 30 samples.

Results

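Oxidative phosphorylation genes encode the proteins of the inner mitochondrial membrane that pass electrons from NADH and succinate to oxygen (complexes I to IV) and use the resulting proton gradient to make ATP (complex V). Neurons depend heavily on this pathway, and the unmyelinated stretch of a retinal ganglion cell (RGC) axon inside the eye is rich in mitochondria. Most subunits are made by every cell, but several complex IV subunits have a second gene that is used in particular tissues, such as Cox6a2 and Cox7a1 in heart and skeletal muscle, Cox4i2 in lung and Cox6b2 in testis.

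The genes described here are the 86 rows of the RNA table, of 13752 rows in all, whose symbols begin with Nduf followed by a, b, c, s or v, with Uqcr, with Cox4 to Cox8 or with Atp5, or are Sdha, Sdhb, Sdhc, Sdhd or Cyc1. Of these, 79 are subunits (36 of complex I, 4 of complex II, 9 of complex III, 16 of complex IV and 14 of complex V), and 7 are the Ndufaf genes, which encode assembly factors of complex I and are counted apart. Ndufa4 was placed in complex IV, where its protein is found, and Cox7a2l, whose protein links complexes III and IV, was kept with complex IV. All 86 passed the filter on low counts. The 13 subunits encoded by the mitochondrial genome, looked up by symbol, had no row in the RNA table and so were not analysed.

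RGCs send the axons of the optic nerve to the brain. The study crushed that nerve in mice and asked how RGC gene expression and open chromatin change afterwards. The RNA libraries analysed came from day 1 (n = 3), day 2 (n = 2), day 3 (n = 3) and day 4 (n = 2) after crush and from mice with no crush (day 0, n = 3). The labels also list replicate 3 of day 2 and replicate 1 of day 4, which are not used here. The ATAC libraries, in which a transposase cuts open chromatin, came from day 1 (n = 3), day 3 (n = 6) and day 0 (n = 6). Retinas were dissociated with papain and RGCs were sorted by fluorescence, and no marker for that sort was given. The strain is labelled C57BL/6, except for day 0 RNA replicates 2 and 3, which are labelled C57BL/7 and C57BL/8. No transgene, age or sex is given in the labels, and the authors' comparison and footprint tables head their groups NT and nonTarget, which the labels do not explain. Whether replicates came from separate animals or pools is not stated, so each p-value speaks of the variation among these libraries, and part of it may be technical.

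RNA libraries held 19024286 to 27561352 counts in genes. The sorted cells carried RGC markers in every library, at a summed 4801 to 6864 CPM (counts scaled to a common library total) on days 1 to 4 and 7939 to 8489 CPM on day 0 over 8 genes such as Rbpms and Slc17a6. Markers of rods, microglia and amacrine cells were also present in every library. So were those of Mueller glia and astrocytes (177 to 455 CPM over 5 genes) and bipolar cells (120 to 158 CPM over 4 genes).

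After crush, the oxidative phosphorylation genes fell together, reached their lowest level on day 2 and then came part of the way back. All 86 rows took 0.933% to 0.984% of counts on day 0, 0.843% to 0.903% on day 1, 0.643% to 0.655% on day 2, 0.766% to 0.866% on day 3 and 0.736% to 0.776% on day 4. The libraries of each later day all lay below those of day 0. The fitted level was lowest on day 2, among days 1 to 4, in 68 of the 86 genes, a count that was not made for all genes. In sorted bulk samples, fewer cells that use these genes and less of their RNA per cell cannot be told apart.

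**Figure D1:**
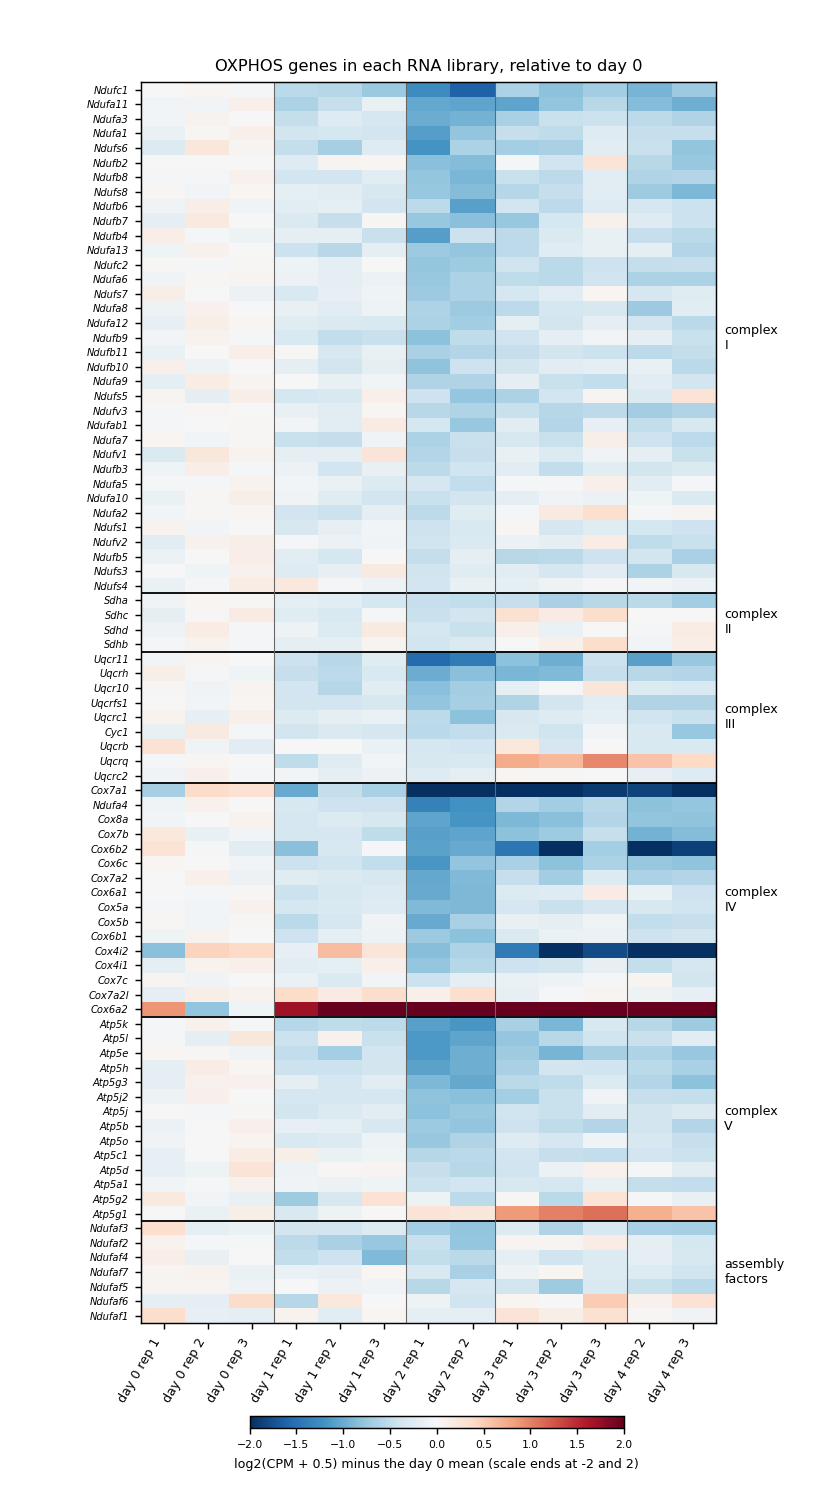
Each row is an oxidative phosphorylation gene (1 of the 86 is not drawn) and each column an RNA library, ordered by day. Colour gives log2(CPM + 0.5) minus the mean of the day 0 libraries, with the scale ending at -2 and 2. Both day 2 libraries are blue in nearly every row, and the red rows are Cox6a2 (days 1 to 4), Atp5g1 and Uqcrq (days 3 and 4).

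Each later day was compared with day 0 in 1 edgeR fit over all genes, in which a gene is called when its Benjamini-Hochberg adjusted p is under 0.05. On day 1, 1 of the 86 genes was called higher and 20 lower, where 5.93% of all 13737 genes tested were called higher and 5.45% lower. The median log2 fold change of the 86 was -0.24, and that of all genes was 0.01. On day 2, 1 was higher and 67 were lower, against 14.8% and 14.5% of all genes, and the median was -0.68, against 0.04 for all genes. On day 3, 3 were higher and 42 lower, against 20.4% and 20.1% of all genes, with medians of -0.32 and 0.03. Day 4 had 3 higher and 50 lower, against 19.8% and 19% of all genes, with medians of -0.45 and 0.06. The 20 lower calls on day 1 became 9, 11 or 13 without day 1 replicate 2, day 1 replicate 1 or day 0 replicate 3. The 7 assembly factor genes among the 86 gave 2, 5, 2 and 2 lower calls on days 1 to 4 and no higher call.

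The days were also compared with each other. Day 2 against day 1 gave 1 higher and 42 lower of 86, where 6.22% and 6.73% of all genes were called. Day 3 against day 2 gave 33 higher and 0 lower, where 7.43% and 9.51% of all genes were called, and the median change was 0.40. At an unadjusted p under 0.05 these were 52 higher and 2 lower, where 4128 of 13737 genes passed in either direction. DESeq2 called 1 lower. Only 2 libraries stand for day 2, and without day 2 replicate 1 or replicate 2 the 33 became 15 or 19 and the 42 became 19 or 21, and without day 3 replicate 3 the 33 became 20. Day 4 against day 3 gave 0 calls in either direction by edgeR, against 0.881% and 0.859% of all genes, and 2 lower by DESeq2. At an unadjusted p under 0.05, 0 were higher and 13 lower, where 2069 of 13737 genes passed in either direction.

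Levels of markers of other cell types differed between days. Rod markers (6 genes) summed to 1010, 332 and 221 CPM on day 0, 772 to 1018 on day 1, 257 and 333 on day 2, 623 to 756 on day 3 and 299 and 638 on day 4. They were thus lower on day 2 than on days 1 and 3. On day 2 against day 1, 2 of 6 were called lower (median -1.36), where 6.73% of all genes were. On day 3 against day 2, 1 of 6 was called higher (median 1.04), where 7.43% of all genes were. Against day 0 none of the 6 was called on day 2 (median -0.92), where 14.8% of all genes were called higher and 14.5% lower. Without day 0 replicate 1, the highest in rod RNA on day 0, 69 oxidative phosphorylation genes were lower on day 2 in place of 67. The other day 0 libraries also held rod RNA, so this refit does not test the part of rods.

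Microglia markers (8 genes) summed to 34.8 to 61.6 CPM on day 0, 51.4 to 195 on day 1, 110 and 128 on day 2, 23.3 to 35.3 on day 3 and 88.5 and 134 on day 4. On day 2, 2 of 8 were higher than on day 0, where 14.8% of all genes were. On day 3, 5 of 8 were lower than on day 2 (median -1.95), where 9.51% of all genes were. Amacrine cell markers (4 genes) were at 301 and 383 CPM on day 2 and 60.5 to 261 CPM on day 0. Of these, 2 of 4 were called higher (median 1.04), against 14.8% of all genes. Among the 8 RGC markers, 6, 7, 7 and 7 were called lower on days 1 to 4, with medians of -0.42, -0.82, -1.22 and -1.37. On each of days 3 and 4, 1 of the 8 was called higher, where 20.4% and 19.8% of all genes were. Of all genes, 5.45%, 14.5%, 20.1% and 19% were called lower on days 1 to 4. Against day 2, 4 of the 8 were lower on day 3, where 9.51% of all genes were. Bipolar cell markers (4 genes) had 1 of 4 called lower on day 1, where 5.45% of all genes were. On each of days 3 and 4, 2 of 4 were called higher, where 20.4% and 19.8% of all genes were. The part of these cell types in the changes of the oxidative phosphorylation genes was not tested.

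**Figure D2:**
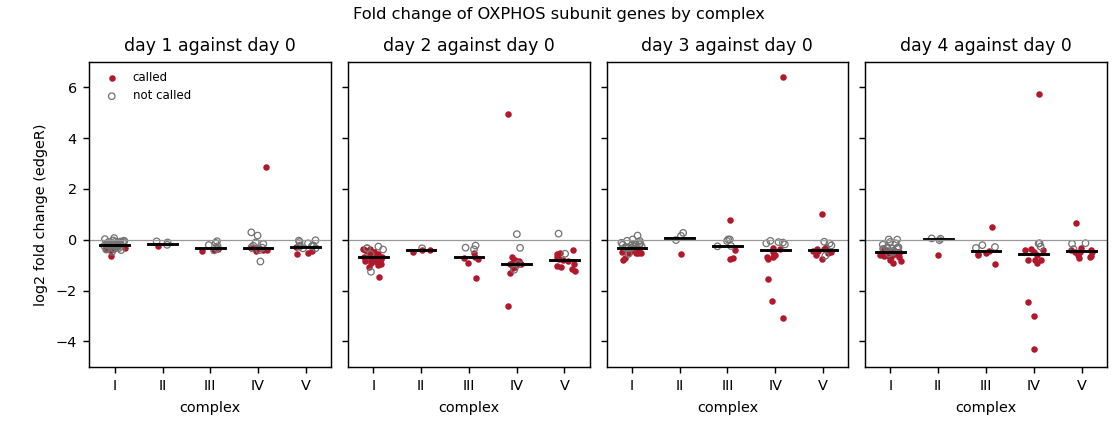
Points are subunit genes, grouped by complex, with the log2 fold change of each later day against day 0 on the vertical axis. Red points were called, open points were not, and bars are medians. Complex IV holds both the largest rise, 6.39 for Cox6a2 on day 3, and the largest fall, -4.29 for Cox4i2 on day 4.

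Complex I, the NADH dehydrogenase, had a median log2 fold change of -0.22, -0.67, -0.32 and -0.47 on days 1 to 4, with 4, 30, 17 and 20 of 36 subunit genes called lower and none higher. The shares of all genes on those days were 5.45%, 14.5%, 20.1% and 19% lower and 5.93%, 14.8%, 20.4% and 19.8% higher. Its summed level was 2224 to 2443 CPM on day 0, 1974 to 2138 on day 1, 1500 and 1599 on day 2, 1854 to 2045 on day 3 and 1707 and 1818 on day 4. In the membrane arm, which pumps protons, 17 of 20 genes were lower on day 2 with a median of -0.77. In the NADH-oxidizing module 6 of 8 were lower with a median of -0.46, and in the ubiquinone-reducing module 7 of 8 with a median of -0.58.

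Ndufc1, a small membrane arm subunit, fell furthest in complex I. It was at 57.0, 58.8 and 56.4 CPM on day 0, 39.3, 38.5 and 34.2 on day 1, 23.7 and 18.4 on day 2, 36.9, 32.2 and 35.1 on day 3 and 30.0 and 34.4 on day 4. No library of a later day reached the day 0 range, and the change on day 2 was -1.45 ± 0.15 (log2 fold change ± SE, edgeR adjusted p = 1.37e-06). Day 3 was 1.65-fold above day 2 (edgeR adjusted p = 0.00226).

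Ndufa11, also of the membrane arm, was still lower on day 4. It averaged 34.3 ± 1.98 CPM on day 4 (SD, n = 2) and 65.3 ± 4.14 CPM on day 0 (SD, n = 3), a change of -0.93 ± 0.16. Among the catalytic core subunits, Ndufs8, which holds iron-sulfur clusters, changed by -0.82 on day 2, -0.41 on day 3 and -0.81 on day 4, all called. Ndufs7 and Ndufv1 were lower on day 2 only (-0.69 and -0.54), and Ndufs3 passed on no day. Ndufv2 was lower on days 2 and 4 (-0.35 and -0.49), as was Ndufs1 (-0.36 and -0.39). Ndufs4, an accessory subunit, passed on no day.

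Complex II, succinate dehydrogenase, is also an enzyme of the citrate cycle, and its 4 genes went separate ways. Sdha, the flavoprotein that oxidizes succinate, was at 403, 433 and 427 CPM on day 0, 370, 363 and 331 on day 1, 306 and 299 on day 2, 306, 269 and 285.5 on day 3 and 288 and 261 on day 4. Every library after crush lay below the day 0 range, and the change was -0.25, -0.48, -0.55 and -0.62 on days 1 to 4, called on each. Day 3 did not differ from day 2 by the test (-0.08 ± 0.08).

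Sdhb, the iron-sulfur subunit, passed on no day against day 0, and was 0.49 higher on day 3 than on day 2 on the log2 scale, which passed. Sdhc, a membrane anchor, was at 97.3, 88.4 and 100.5 CPM on day 3 and 68.8, 79.7 and 88.4 CPM on day 0. It was lower on day 2 (-0.42) and had a change of 0.27 ± 0.11 on day 3 that missed the threshold (edgeR adjusted p = 0.0527). Sdhd, the other anchor, was lower on day 2 alone (-0.41).

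Complex III, which passes electrons to cytochrome c, had medians of -0.34, -0.68, -0.25 and -0.43, and 3, 6, 3 and 5 of 9 genes were lower. The shares of all genes lower on days 1 to 4 were 5.45%, 14.5%, 20.1% and 19%. Uqcr11, a small subunit, was at 34.7, 37.3 and 36.0 CPM on day 0, 26.5, 24.3 and 30.3 on day 1, 12.1 and 13.3 on day 2, 20.2, 18.1 and 26.7 on day 3 and 16.6 and 21.0 on day 4. Its fall on day 2 was 2.84-fold (-1.51 ± 0.19, edgeR adjusted p = 1.68e-05), and no later library overlapped day 0. The redox subunits Uqcrfs1, the Rieske iron-sulfur protein, and Cyc1, cytochrome c1, were both lower on day 2 (-0.73 and -0.52) and day 4 (-0.61 and -0.52). Of the core proteins, Uqcrc1 was lower on days 2 and 4 (-0.68 and -0.43) and Uqcrc2 passed on no day.

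Uqcrq, a small complex III subunit that binds ubiquinone, rose instead. It was at 72.7, 76.2 and 74.2 CPM on day 0, 51.9, 63.1 and 71.7 on day 1, 59.8 and 60.2 on day 2, 124.7, 116.8 and 145.9 on day 3 and 111 and 98.6 on day 4. All libraries of days 1 and 2 were below day 0 and all of days 3 and 4 above it. Day 3 stood 1.74-fold above day 0 (0.80 ± 0.12, edgeR adjusted p = 2.82e-05) and day 4 stood 1.41-fold above it (0.49 ± 0.13, adjusted p = 0.00519), while days 1 and 2 were not called (-0.26 and -0.31). The day 4 call was lost without day 4 replicate 2 (adjusted p = 0.0714) and with the first 2 sequencing components of the authors' covariate table as terms (0.18, adjusted p = 0.401). The Uqcrq gene overlaps the gene Gdf9 by 58 bases, and the RNA kit does not mark strand.

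Complex IV, cytochrome c oxidase, had the lowest median on day 2, -0.95, with -0.31, -0.42 and -0.55 on days 1, 3 and 4. Of its 11 ubiquitous subunits, 6, 10, 7 and 9 were lower on days 1 to 4, with none higher. The shares of all genes were 5.45%, 14.5%, 20.1% and 19% lower and 5.93%, 14.8%, 20.4% and 19.8% higher. Ndufa4 was at 209, 234 and 221 CPM on day 0, 177, 165 and 166 on day 1, 86.3 and 94.8 on day 2, 147, 136 and 150 on day 3 and 125 and 129 on day 4. It was 2.45-fold lower on day 2 (-1.29 ± 0.09, edgeR adjusted p = 2.61e-08), and no later library overlapped day 0. Cox8a, Cox7b and Cox6c were lower on all 4 days, by 1.12, 1.08 and 0.97 log2 units on day 2. Cox6a1 was lower on days 1 and 2 (-0.34 and -0.95) and not called on days 3 and 4 (-0.11 and -0.27), while Cox7a2l passed on no day.

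Cox6a2, the heart and muscle form of subunit 6a, was the one member called higher on each day. Its raw counts were 20, 0 and 8 on day 0, 45, 84 and 75 on day 1, 269 and 319 on day 2, 742, 863 and 965 on day 3 and 591 and 504 on day 4. In CPM these were 1.08, 0 and 0.311, then 2.31, 3.71 and 3.47, then 12.6 and 14.3, then 31.1, 37.7 and 40.3, then 22.1 and 23.9. No later library overlapped day 0, and the values rose over days 0 to 3. Fitted by edgeR, day 1 stood 7.32-fold above day 0 (2.87 ± 0.52, adjusted p = 0.00189). Day 2 stood 30.9-fold above day 0 and day 3 stood 83.7-fold above it (6.39 ± 0.51, adjusted p = 2.74e-08). By day 4 it stood at 52.9-fold.

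The size of the Cox6a2 fold rests on the 28 counts of day 0, though the call does not. Without day 0 replicate 1 the day 3 fold was 212 (log2 7.73), and without day 0 replicate 2 the log2 value was 5.76. Day 1 was not called when only its own libraries and those of day 0 were fitted (adjusted p = 0.106). The gene lies at chr7:128205435-128206387 on the minus strand in the authors' annotation and overlaps Itgad, which has no row in the RNA table, by 70 bases.

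Muscle genes were counted beside Cox6a2. Of 17 striated muscle genes listed, 3 had a row (Acta1, Atp2a1 and Mylpf), at a summed 2.41 to 5.42 CPM on days 1 to 4 and 1.08 to 1.79 CPM on day 0, and the myosin and troponin genes, Ckm and Des had none. Atp2a1, the muscle calcium pump, was called higher on days 2, 3 and 4 (3.96, 4.47 and 4.06), and Acta1 and Mylpf on no day.

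As a share of the raw counts of Cox6a1 and Cox6a2 together, Cox6a2 made up 1.63% ± 0.320 on day 1, 9.77% ± 0.328 on day 2, 14.1% ± 1.43 on day 3 and 10.4% ± 1.74 on day 4, against 0.192% ± 0.231 on day 0 (SD over 2 or 3 libraries). Each day's libraries lay above all of day 0. The two-sided exact permutation test gave p = 0.1 for each day, the smallest this design allows. The share is of reads and is not corrected for transcript length.

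**Figure D3:**
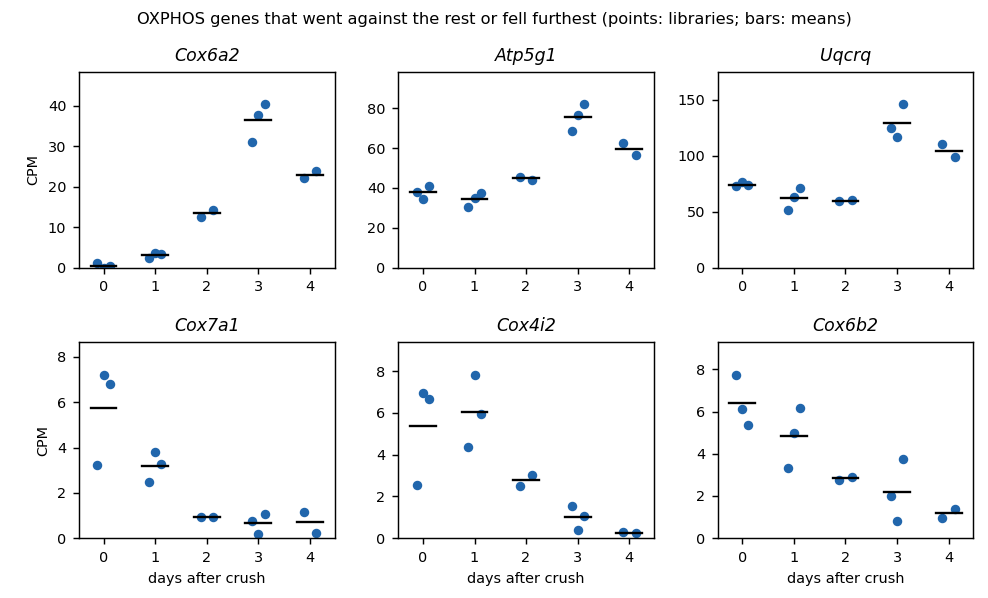
Points are the CPM of single RNA libraries and bars are the means of days 0 to 4, on a linear axis that starts at 0. Cox6a2, Atp5g1 and Uqcrq (upper row) are highest on day 3, and Cox7a1, Cox4i2 and Cox6b2 (lower row) are lowest on day 3 or 4.

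The other tissue isoforms of complex IV fell. Cox7a1, the heart and muscle form of subunit 7a, was at 3.25, 7.21 and 6.81 CPM on day 0, 2.46, 3.80 and 3.28 on day 1, 0.934 and 0.938 on day 2, 0.755, 0.175 and 1.09 on day 3 and 1.16 and 0.237 on day 4. Days 2, 3 and 4 did not overlap day 0, and day 1 did. The changes were -2.61 ± 0.73, -3.09 ± 0.64 and -3.01 ± 0.74 on days 2 to 4, called on each (edgeR adjusted p = 0.0121, 0.000854 and 0.00372). The day 2 call was lost without either of its libraries (adjusted p = 0.0847 and 0.0907) and the day 4 call without day 4 replicate 3 (0.0513).

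Cox4i2, the lung form of subunit 4, fell later. It was at 2.54, 6.95 and 6.65 CPM on day 0, 4.36, 7.82 and 5.97 on day 1, 2.52 and 3.04 on day 2, 1.55, 0.393 and 1.09 on day 3 and 0.299 and 0.237 on day 4. Days 3 and 4 lay below all other days, with changes of -2.41 ± 0.50 and -4.29 ± 0.68 (edgeR adjusted p = 0.000979 and 7.87e-05). The last rests on 8 and 5 counts. The Cox4i2 gene overlaps Bcl2l1 by 6306 bases, so reads from that stretch cannot be assigned to one of them without strand.

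Cox6b2, the testis form of subunit 6b, was at 7.74, 6.13 and 5.37 CPM on day 0, 3.33, 4.99 and 6.15 on day 1, 2.76 and 2.90 on day 2, 2.01, 0.829 and 3.76 on day 3 and 0.972 and 1.37 on day 4. Days 2, 3 and 4 lay below day 0, and the falls on days 3 and 4 were called (-1.54 ± 0.45 and -2.45 ± 0.55, edgeR adjusted p = 0.0118 and 0.00191). Among the genes of pericytes, which are known to use Cox4i2, Rgs5, Abcc9 and Vtn had rows, at a summed 4.63 to 13.1 CPM on days 1 to 4 and 5.33 to 8.82 CPM on day 0, and Pdgfrb, Kcnj8 and Higd1b had none.

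Complex V, the ATP synthase, had medians of -0.27, -0.78, -0.41 and -0.44, with 4, 12, 9 and 10 of 14 genes lower. The shares of all genes lower on days 1 to 4 were 5.45%, 14.5%, 20.1% and 19%. All 5 genes of the catalytic head and central stalk and all 6 of the peripheral stalk and membrane part were lower on day 2. Atp5b, the catalytic beta subunit, was at 1948, 2106 and 2265 CPM on day 0, 1873, 1858 and 1684 on day 1, 1270 and 1211 on day 2, 1583, 1471 and 1402 on day 3 and 1628 and 1393 on day 4. It was 1.70-fold lower on day 2 (-0.76 ± 0.09, edgeR adjusted p = 7.34e-06), and no later library overlapped day 0. Among small subunits, Atp5l, Atp5k and Atp5e were 1.24, 1.14 and 1.07 log2 units lower on day 2, Atp5l at 2.76 and 2.95 CPM.

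The c ring, which turns as protons pass, is made of 1 protein encoded by the genes Atp5g1, Atp5g2 and Atp5g3, and these moved apart. Atp5g1 was at 38.2, 34.5 and 40.8 CPM on day 0, 30.4, 35.1 and 37.5 on day 1, 45.4 and 44.1 on day 2, 68.5, 76.4 and 81.8 on day 3 and 62.3 and 56.4 on day 4. Days 2, 3 and 4 lay above day 0, and days 3 and 4 were called, at 2.00-fold (1.00 ± 0.11, edgeR adjusted p = 2.07e-06) and 1.57-fold (0.65 ± 0.13, adjusted p = 0.000509). These calls held without any single library. Atp5g3 changed by -0.96, -0.44 and -0.70 on days 2 to 4, called on each, and Atp5g2, at 0.256 to 1.02 CPM, on no day. The share of Atp5g1 in the raw counts of all 3 was 13.3% to 16.6% on day 1, 27.1% and 28.4% on day 2, 30.4% to 32.4% on day 3 and 29.2% and 30.7% on day 4, against 12.6% to 16.0% on day 0.

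In all, 13 of the 86 genes passed in none of the 4 comparisons with day 0, which share the day 0 libraries. The matching count over all genes was not made. The 13 were Atp5g2, Cox7a2l, Cox7c, Ndufa2, Ndufab1, Ndufaf1, Ndufaf6, Ndufs3, Ndufs4, Ndufs5, Sdhb, Uqcrb and Uqcrc2. Atp5g2 and Ndufs5 are among those with few counts, 5 to 24 and 4 to 20 per library.

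Other genes of mitochondrial energy supply were compared by lists, where 5.45%, 14.5%, 20.1% and 19% of all genes were lower and 5.93%, 14.8%, 20.4% and 19.8% higher on days 1 to 4. Of 16 citrate cycle and pyruvate dehydrogenase genes, 3, 13, 8 and 11 were lower and 0, 0, 2 and 1 higher on days 1 to 4, with medians of -0.18, -0.43, -0.19 and -0.32. Idh3a and Ogdh, citrate cycle dehydrogenases, were lower on all 4 days (-0.93 and -0.89 on day 2), whereas Dld, the shared lipoamide dehydrogenase, was higher on days 3 and 4 (0.46 and 0.38) and Mdh2, malate dehydrogenase, on day 3 (0.47). Of 11 genes of electron carriers and ATP export, 3, 8, 6 and 5 were lower and 1 was higher, on day 3. Slc25a4, an ATP and ADP exchanger, was lower on all 4 days (-1.13 on day 4), and Cycs, cytochrome c, on day 2 (-1.13).

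Of 37 assembly factor genes outside the symbol rule, 3, 7, 6 and 2 were lower and 1, 2, 4 and 2 higher on days 1 to 4, to be read against the same shares of all genes. Surf1, for complex IV, was higher on days 1, 2 and 3 (0.70 on day 3), and Uqcc2, for complex III, lower on days 1 and 2 (-0.59 and -1.06). Of 15 regulators of mitochondrial gene expression, 1, 4, 5 and 5 were higher and 0, 2, 1 and 2 lower. On days 2, 3 and 4 these included Gabpa (0.85, 0.78 and 0.99), Gabpb1 (0.97, 0.66 and 0.63), Nrf1 (0.65, 0.53 and 0.62) and Yy1 (0.42, 0.38 and 0.40), factors known to bind promoters of oxidative phosphorylation genes. Esrrg, a nuclear receptor that acts on such genes, was lower on those days (-0.57, -0.48 and -0.63). Gabpa overlaps the member Atp5j by 735 bases.

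Ribosomal protein genes, also short and highly expressed, were set beside them with lists chosen after the data were seen. Of 78 cytosolic ones, 11, 26, 43 and 38 were higher and 0 lower by edgeR on days 1 to 4, with medians of 0.20, 0.37, 0.53 and 0.47. The shares of all genes on those days were 5.93%, 14.8%, 20.4% and 19.8% higher and 5.45%, 14.5%, 20.1% and 19% lower. The 77 mitochondrial ribosomal protein genes had medians of 0.02, -0.18, 0.15 and 0.01, with 1, 6, 12 and 5 called higher and 1, 10, 6 and 6 lower.

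**Figure D4:**
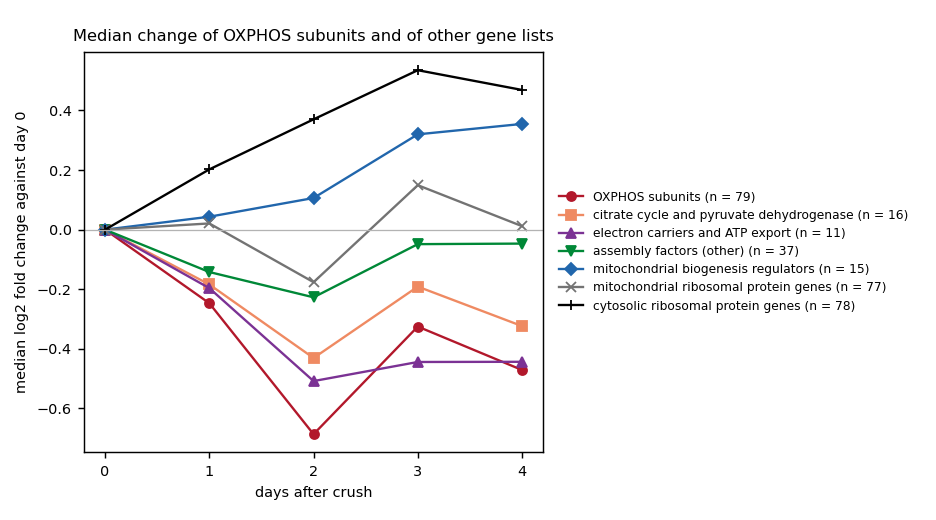
Lines give the median log2 fold change of each gene list against day 0, by days after crush, with day 0 set to 0 and the number of genes in the legend. The oxidative phosphorylation subunits have the lowest point, -0.69 on day 2, and the cytosolic ribosomal protein genes lie above 0 on every day after crush.

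The authors' deposited table of comparisons has columns headed day 1 and day 3. Over 13737 genes, the log2 fold changes of its day 1 column differed from those fitted here for day 1 by a median of 0.0409. Its day 3 column differed from those fitted for day 2 by a median of 0.0655 and from those fitted for day 3 by 0.309. By the authors' deposited table, 1 member passed as higher and 3 as lower in the day 1 column, and 1 and 56 in the day 3 column. Over all 13752 genes, the authors' deposited table has 426 higher and 297 lower in the day 1 column and 1155 and 1554 in the day 3 column. Days here follow the headings of the count table, which match the sample titles, and the day 2 low point rests on them.

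Promoter sequences were read for 71 of the 86 genes, from RefSeq (build GRCm38.p6), each from 250 bases before to 50 after the gene's start. The 4 shown are of genes that moved apart: Atp5g1, which rose, Cox7a1, a tissue isoform that fell, and Uqcr11 and Ndufc1, which fell furthest in complexes III and I on day 2. Capitals mark every match, on either strand, to 1 of 6 motifs.
Atp5g1: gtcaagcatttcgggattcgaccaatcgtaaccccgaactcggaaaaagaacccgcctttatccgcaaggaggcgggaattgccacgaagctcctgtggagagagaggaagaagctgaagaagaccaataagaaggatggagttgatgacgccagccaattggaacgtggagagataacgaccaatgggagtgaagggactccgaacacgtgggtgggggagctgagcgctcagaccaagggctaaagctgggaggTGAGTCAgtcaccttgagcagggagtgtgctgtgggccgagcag
Cox7a1: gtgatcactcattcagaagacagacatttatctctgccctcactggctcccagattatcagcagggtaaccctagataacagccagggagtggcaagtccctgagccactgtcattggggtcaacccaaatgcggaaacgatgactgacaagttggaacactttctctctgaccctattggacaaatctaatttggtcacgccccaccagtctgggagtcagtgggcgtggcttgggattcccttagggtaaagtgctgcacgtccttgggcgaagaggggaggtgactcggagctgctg
Uqcr11: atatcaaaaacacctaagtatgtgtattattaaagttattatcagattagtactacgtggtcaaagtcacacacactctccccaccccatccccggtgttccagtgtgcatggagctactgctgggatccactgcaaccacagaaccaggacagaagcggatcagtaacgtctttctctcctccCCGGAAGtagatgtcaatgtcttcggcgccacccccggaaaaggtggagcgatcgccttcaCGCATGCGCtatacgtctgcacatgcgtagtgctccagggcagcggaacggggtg
Ndufc1: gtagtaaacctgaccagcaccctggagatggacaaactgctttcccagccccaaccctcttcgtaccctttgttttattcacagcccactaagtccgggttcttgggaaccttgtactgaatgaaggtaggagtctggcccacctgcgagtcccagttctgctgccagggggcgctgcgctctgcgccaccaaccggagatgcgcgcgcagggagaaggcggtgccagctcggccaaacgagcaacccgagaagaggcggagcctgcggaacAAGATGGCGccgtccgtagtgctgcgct
They lie at chr11:96075582-96075881 (minus strand), chr7:30183921-30184220 (plus strand), chr10:80406772-80407071 (minus strand) and chr3:51408906-51409205 (minus strand). Atp5g1 holds an AP-1 match, Uqcr11 an ETS and an NRF1 match, Ndufc1 a YY1 match, and Cox7a1 none of the 6.

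Over the 71 promoters, the NRF1 motif (GCGCANGCG) was in 22, or 31%. It was in 7.03% of 27025 genes with a RefSeq promoter outside chromosome 18 and in 14.3% of the 10806 of these in the RNA table. The ETS motif (CCGGAAG), which GABP binds, was in 23.9% against 9.93% and 18.3%, and the YY1 motif (AAGATGGCG) in 9.86% against 1.64% and 3.26%. The cAMP response element (TGACGTCA) was in 5.63% against 2.03% and 3.52%, and the AP-1 motif (TGANTCA) in 9.86% against 8.97% and 6.16%. The composite site of CEBP and ATF factors (TGATGNAA) was in 0 of 71, against 4.51% and 2.84%. Of 59 genes with a promoter read that were lower on day 2, 20 held the NRF1 motif, and of the other 12, 2 did. For the ETS motif these were 14 and 3, for YY1 6 and 1, for the cAMP response element 4 and 0, and for AP-1 5 and 2. Matches describe letters in these windows and do not show binding.

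Open chromatin at these promoters was measured in 71 of the 86 genes, at the most strongly covered peak annotated to each promoter, among 151630 peaks. On day 1, 0 of 71 were called higher and 12 lower, where 5.44% and 2.4% of all peaks and 2.52% and 6.9% of all promoter peaks were called. The median log2 fold change was -0.39, against -0.09 for all promoter peaks. The latter include the weaker peaks of each gene, so the sets are not alike in coverage. With a lowess curve over mean peak level removed from each library, the day 1 medians were -0.07 for the members and -0.02 for all promoter peaks. On day 3 they were -0.11 and -0.03. With the replicate number as a block, which pairs the libraries of days 1 and 0, 5 were lower. Single libraries decided the day 1 count: it was 0 without any 1 of the 3 day 1 libraries or without day 0 replicate 1 or 3, and 42 without day 3 replicate 6. On day 3, 1 was higher and 12 were lower, where 16.4% and 7.39% of all peaks and 10.1% and 8.97% of all promoter peaks were called, with a median of -0.23 against -0.05. It was 3 lower without day 3 replicate 2 or 3 and 37 without day 3 replicate 1, and the higher call was lost without day 0 replicate 1, 2 or 3. Day 1 was made in batch 2 alone. Within batch 1, day 3 gave 0 calls by edgeR, and within batch 2, 40 lower.

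These values moved with the share of reads in peaks. That fraction was 0.157 to 0.186 on day 1, 0.173 to 0.197 in day 3 replicates 2, 3 and 4, 0.31 to 0.456 in day 3 replicates 1, 5 and 6, and 0.322 to 0.496 on day 0. The summed CPM of the 71 peaks was 2071 to 2136 on day 1, 2056 to 2099 in those 3 day 3 libraries, 2752 to 2921 in the other 3, and 2756 to 2993 on day 0. With that share as a term, added after the data were seen, 0 of the 71 peaks were called on either day by edgeR. Their medians were then -0.10 on day 1 and -0.08 on day 3, against -0.12 and -0.05 for all promoter peaks. At an unadjusted p under 0.05 in the fit with day and batch, 0 peaks were higher and 60 lower on day 1, and 1 and 36 on day 3. All peaks were not counted at that threshold.

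**Figure D5:**
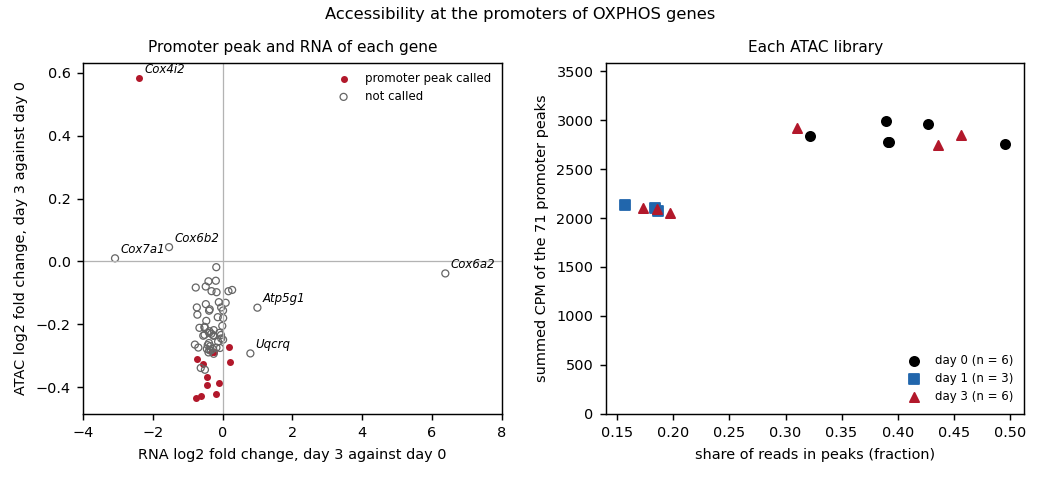
Left, each point is an oxidative phosphorylation gene, with the RNA log2 fold change of day 3 against day 0 on the horizontal axis and that of its promoter peak on the vertical axis, red where the peak was called. Right, each point is an ATAC library, with the share of reads in peaks on the horizontal axis and the summed CPM of the 71 peaks on the vertical axis, which starts at 0. All 3 day 1 libraries and 3 of 6 day 3 libraries lie at 2056 to 2136 CPM and a share of 0.157 to 0.197, and all others at 2752 to 2993 CPM.

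The peaks of the genes whose RNA stood apart were read singly. The Cox6a2 peak (chr7:128207562-128209190, upstream of the start) was at 4.09 to 5.26 CPM on day 3 and at 3.20 to 6.69 CPM on day 0, a change of -0.04 ± 0.13 (edgeR adjusted p = 0.879). The peaks of Cox7a1, Cox6b2, Atp5g1 and Uqcrq changed by 0.01, 0.05, -0.15 and -0.29 on day 3, none called. The peak of Cox4i2 was the one called higher (0.58 ± 0.17, adjusted p = 0.0159), while its RNA fell. It was at 10.0 to 13.7 CPM on day 3 and 5.15 to 5.66 CPM on day 0 in batch 2, and at 12.2 to 15.5 CPM on day 3 and 10.9 to 15.8 CPM on day 0 in batch 1. Within batch 2 the change was 1.10 (adjusted p = 8.38e-06) and within batch 1 it was -0.00014 (adjusted p = 1.0).

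The authors' footprint scores, made from pooled libraries and so without a replicate error, list sites of stress-induced factors at some member promoters. At the Uqcrq promoter, an ATF4 site (chr11:53430357-53430370) had scores of 0.360 on day 0, 0.461 on day 1 and 0.442 on day 3 and was marked bound on all 3 days, with CEBPG and DDIT3 sites overlapping it. At the Ndufb10 promoter an ATF4 site (chr17:24724713-24724726) had 0.222, 0.315 and 0.244 and was bound on all 3 days. Near Cox7a1, downstream of the gene, an ATF4 site had 0.080, 0.165 and 0.108 and was marked bound on day 1 alone. Some other promoter sites had larger scores and were also bound on all 3 days. Among them were an ATF3 site at Ndufa10 (1.49, 1.67 and 2.02) and a CEBPG site at Ndufs7 (1.55, 1.69 and 1.56). Every member site listed scored higher on day 1 than on day 0, so the rises at Uqcrq and Ndufb10 are not particular to them. Cox6a2 and Atp5g1 had no site in these tables.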

How the data were processed

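RNA of sorted RGCs was amplified with SMART-Seq v4, which does not mark strand, and open chromatin was profiled by ATAC-seq, per the labels' protocols. Tools listed in the submitters' processing notes include STAR and HTSeq for RNA and Bowtie2, MACS2, featureCounts and DESeq2 for ATAC, with the build mm10 and no versions. The deposited RNA and ATAC tables hold raw counts, per the file headers. The authors' covariate tables give scores of sequencing components, a batch and the fraction of reads in peaks, their comparison table gives log2 fold changes and p-values, and their footprint scores come from pooled libraries, per the file headers.

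Genes were tested with edgeR 4.0.16 (quasi-likelihood, TMM, filterByExpr, all days in 1 fit) in R 4.3.3, with Benjamini-Hochberg adjustment over 13737 genes and a threshold of 0.05. SE is the log2 fold change divided by the root of F. Peaks were tested the same way with day and batch as terms. The scripts were tested on simulated data. Libraries of days 1 and 0 with the same ATAC replicate number deviated together (r = 0.118 to 0.223 over 3 pairs), so a block was also fitted. ATAC libraries held 20006724 to 72579102 counts in peaks. CPM scales the counts in genes or peaks to a common total, and gives levels relative to the rest of each library.

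Genes were named by rule: the 6 largest rises and falls that passed on each day, tissue isoforms with their partners, and core subunits; others were named after their values were seen. The values of 1 gene that the rule names are not reported here. The members and lists were chosen with earlier results of these data known. A per-length isoform share was planned but the files give no transcript lengths, so shares are of raw counts. Promoters came from RefSeq GRCm38.p6, without those on chromosome 18. Alternatives were other scalings, filters, thresholds and covariates, DESeq2 1.42.0, a replicate block and leaving out each library. The columns of per-sample values not used numbered 0. Figures were drawn with matplotlib 3.10.9.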

Additional observations from a re-analysis of the deposited data

Results flagged for a closer look

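Among the promoter peaks, 9 of 142 groups of 6 libraries (71 genes on days 3 and 0) had a library set apart from the other 5. Chance gives about 1 in 20 for libraries of 1 kind, but each group spans 2 batches, so that rate need not hold. All 9 were on day 0. On day 3 the libraries lay in 2 sets, at 2056 to 2099 and 2752 to 2921 summed CPM, where the rule can hardly find a single library. Replicate 4 was high at Atp5c1 (66.0 CPM, next 56.4), Ndufaf4 (42.1, next 35.9), Ndufc1 (37.5, next 34.9), Ndufv2 (73.2, next 62.3) and Sdha (37.7, next 32.8). Replicate 6 was low at Atp5g2 (75.9, next 85.2) and high at Ndufa11 (142.4, next 124.4). Replicate 1 was high at Cox8a (54.4, next 50.9) and Uqcr11 (27.8, next 26.4).

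For 7 genes the changes on days 3 and 2, each against day 0, had opposite signs, and day 3 against day 2 passed the edgeR test. The log2 difference between days 3 and 2 was 1.11 for Uqcrq, 0.78 for Uqcr10, 0.70 for Ndufaf2, 0.69 for Sdhc, 0.55 for Ndufa2, 0.49 for Sdhb and 0.44 for Ndufa5. Their cause was not tested.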

How the results depend on the processing

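The lower calls on days 2, 3 and 4 (67, 42 and 50) stayed within 1.5 times in every setting other than leaving out a library, at 52 to 73, 31 to 46 and 40 to 60. The counts of the other comparisons moved. On day 1, the 20 lower calls became 6 at an adjusted p under 0.01, 7 with library size only, 11 with only the 2 days' libraries and 5 with 2 sequencing components, and the 1 higher call became 2 with library size only and 0 with only the 2 days. For day 2 against day 1, the 42 lower calls became 25 at 0.01 and 17 with the components, and the 1 higher call became 2 with the replicate block or DESeq2 and 0 with the components. For day 3 against day 2, the 33 higher calls became 19 at 0.01, and the 0 lower calls by edgeR became 1 by DESeq2. For day 4 against day 3, the 0 lower calls became 2 with only the 2 days, the components or DESeq2.

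Leaving out 1 library gave 9 to 23 lower calls on day 1, 49 to 70 on day 2, 36 to 44 on day 3, 35 to 54 on day 4, 19 to 42 for day 2 against day 1 and 0 to 1 for day 4 against day 3. It gave 2 to 4 higher calls on days 3 and 4, and 15 to 42 higher and 0 to 1 lower for day 3 against day 2. An arm left with 1 library is assumed to vary like the other groups. Of 3608 refits of 172 gene and comparison pairs, 3447 kept direction and call, 111 lost the call, 50 gained one and 0 reversed. RNA replicate numbers did not pair the libraries (r = -0.126 to 0.0676 over 22 pairs), and the replicate block changed 5 of 172 calls. With library size only, the median log2 change of all genes on days 1 to 4 was 0.0856 to 0.148, against 0.0127 to 0.0571 with TMM.

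At promoter peaks, the 12 lower calls of day 1 became 0 with day as the only term, with a lowess curve removed or with the fraction of reads in peaks fitted as well (chosen after seeing the data), 5 with the replicate block, 7 with library size only, 42 by DESeq2 and 67 in batch 2 only, where 1 was higher. The 12 of day 3 became 0 with that fraction or in batch 1 only, 3 with day only, 25 with library size only, 26 by DESeq2 and 40 in batch 2 only. The 1 higher call of day 3 became 0 with day only, with that fraction or in batch 1 only. Leaving out 1 library gave 0 to 42 lower on day 1, and 3 to 37 lower and 0 to 1 higher on day 3. The causes were not tested. With 2 or 3 RNA libraries a day, the isoforms at few counts (Cox7a1, Cox4i2, Cox6b2) are the least precise.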
